A study of Mus musculus with 4 samples.

Results

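Cells labelled classical monocytes without an inflammatory programme were examined in single-cell RNA sequencing of mouse bone. In this method every captured transcript carries a unique molecular identifier (UMI). The cells were chosen by a gate on UMI counts, so the levels of the gate genes are given as a description, with no test read from them. The shares of cells, and the co-detecting cells defined below, do rest on these genes. A barcode was kept as a cell with 1000 to 40000 UMIs, at least 200 genes, at most 10% mitochondrial and at most 0.2% haemoglobin UMIs. A kept cell entered the gate with at least 4 UMIs summed over Csf1r, Ms4a6c, Ccr2 and Vcan. It left the gate with 4 or more UMIs over the inflammatory genes Serpinb2, Ptgs2 and Il1a, or 3 or more over Inhba, Gpnmb and Pdpn. It also left with 5 or more over the C1q genes of resident macrophages, 10 or more over the primary granule genes Mpo, Elane, Prtn3 and Ctsg, or 3 or more over the division genes Top2a, Mki67 and Cdk1. The last limits were 2 UMIs of the B cell gene Cd79a and 2% of all UMIs for the secondary granule genes Camp, Ngp and Ltf. Of 31279 kept cells among 40003 barcodes, 742 passed (2.37%), and they are called gated cells here.

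The series compared bone of wild-type mice under normal loading (Ctrl) with bone of wild-type mice after hindlimb unloading (HLU), in which suspension by the tail takes the weight off the hind limbs for 28 days. Each group held 2 libraries, 1 mouse each. The strain, C57BL/6J, and an age of 8 weeks are given in the methods, the series text gives another age, and the sex is not given in the sources used here. The marrow of tibiae and femurs was flushed out before the bone was digested with enzymes, so monocytes washed out with it were not captured. Where 4 values are listed, the first pair belongs to replicates 1 and 2 of Ctrl and the second pair to replicates 1 and 2 of HLU. The libraries held 57925383, 61296053, 47819046 and 99849070 UMIs, of which the gated cells took 1209883, 1594583, 2310777 and 2909401. The gated cells numbered 123, 132, 211 and 276, with medians of 7743, 10748, 10263 and 9530 UMIs and 2192, 2676, 2865 and 2623 genes. Pairs of libraries shared 13 to 21 kept barcode sequences (0.178% to 0.280% of the smaller library) and 0 gated ones.

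Classical monocytes are made in the bone marrow from granulocyte-monocyte progenitors and leave it through the chemokine receptor Ccr2, which responds to the ligands Ccl2 and Ccl7. They carry the surface protein Ly6C, circulate, enter injured tissue and there turn into macrophages or dendritic cells. Under Csf1 and RANKL they can fuse into osteoclasts, the cells that resorb bone. A monocyte also responds to bacterial products and to low oxygen, the latter through hypoxia-inducible factors that raise glycolysis genes.

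The data bore out the label in part. At least 3 of the 4 gate genes were detected together in 36.6, 40.9, 81.5 and 56.2% of gated cells, fewer in the Ctrl than in the HLU libraries. Of the 742 gated cells, 198 reached the 4 UMIs with 1 of the 4 genes alone, and these were 56, 60, 18 and 64 cells of the 4 libraries. Ms4a6c was the lone gene in 0, 2, 1 and 20 of them and Csf1r in 2, 8, 1 and 22, most in HLU replicate 2. Vcan, which encodes the matrix proteoglycan versican and is made by connective tissue cells as well as by monocytes, was the lone gene in 44, 46, 4 and 2 cells. Of these lone Vcan cells, 43, 39, 3 and 0 held more than 1% of their UMIs in a list of 33 cartilage, bone and stromal genes (the skeletal list). Over all gated cells that excess was found in 53, 46, 4 and 1, which is 43.1, 34.8, 1.90 and 0.362% of them. Part of the Ctrl gate thus carried connective tissue transcripts, and few cells of the HLU gate did.

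Other cells entered the gate in smaller numbers. At least 3 UMIs of a list of T and natural killer (NK) cell genes were present in 11, 5, 8 and 26 gated cells, and Ccr2, which lymphocytes also carry, was the lone gate gene in 10, 4, 12 and 20. A list of neutrophil genes took over 5% of UMIs in 1, 4, 8 and 44 cells, most of them in HLU replicate 2. Genes of MHC class II took over 1% in 1, 5, 6 and 9. The adaptor Tyrobp, carried by nearly all myeloid cells, was detected in 67.5, 71.2, 95.3 and 93.1% of gated cells. Since the Ctrl gate held a mixture, values are also given for the gated cells in which at least 3 of the 4 gate genes were detected, called co-detecting cells. This definition was made after the data were seen, so their values are given as a description.

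There were 426 co-detecting cells (57.4% of the gated ones), 45, 54, 172 and 155 in the 4 libraries. They carried the general myeloid markers Tyrobp and lysozyme (Lyz2) at like shares in the 4 libraries, with Tyrobp in 97.8, 100, 100 and 98.1% and Lyz2 in 100, 98.1, 98.8 and 98.7% of cells. Markers of the label were less even, with Ly6c2 in 28.9, 44.4, 76.2 and 89.0% and F13a1 in 88.9, 85.2, 87.8 and 54.8% of cells without thinning. At least 3 UMIs of the T and NK list were found in 0, 0, 0 and 0 of them. Skeletal transcripts took 0.926, 0.232, 0.00439 and 0.00141% of their UMIs, against 6.50, 5.60, 0.0213 and 0.0412% in all gated cells. The same list took 2.76, 3.04, 0.197 and 0.112% of the UMIs of neutrophils, which do not make cartilage or bone matrix, and 5.77, 4.84, 0.178 and 0.218% of the UMIs of barcodes under 1000 UMIs. The skeletal share of co-detecting cells was therefore below that of neutrophils in every library, and all 4 kinds of barcode held more of it in Ctrl than in HLU.

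**Figure D1:**
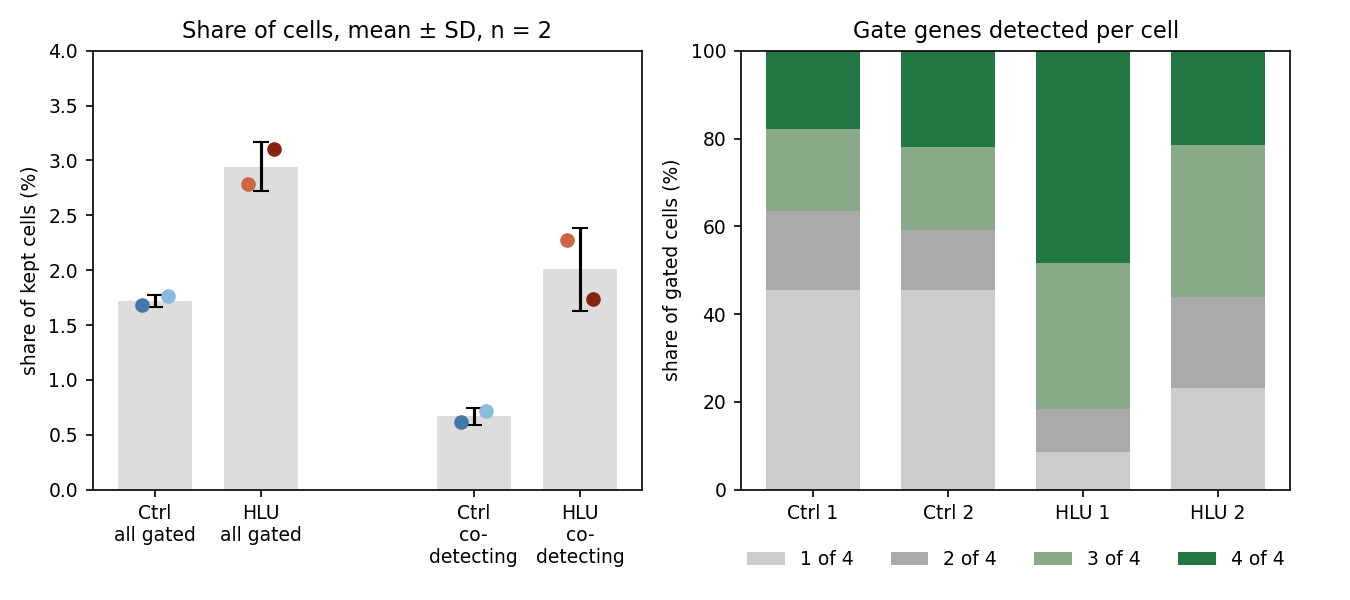
Left, share of kept cells (%) that were gated or co-detecting in each group. Points are libraries, with Ctrl replicate 1 and 2 in dark and light blue and HLU replicate 1 and 2 in orange and dark red, and grey bars with whiskers are mean ± SD. Right, share of gated cells (%) by the number of the 4 gate genes detected, in which cells with a single gate gene are 56 of 123 in Ctrl replicate 1 and 18 of 211 in HLU replicate 1.

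The first comparison asked whether these cells took a different share of the bone preparation after unloading. Gated cells were 1.68, 1.76, 2.79 and 3.10% of kept cells, with 95% exact binomial (Clopper-Pearson) intervals that began at 1.40, 1.48, 2.43 and 2.75% and ended at 2.00, 2.09, 3.18 and 3.48%. Such intervals cover counting error only. The mean was 1.72% ± 0.0557 (SD, n = 2) in Ctrl and 2.94% ± 0.222 (SD, n = 2) in HLU. Both HLU libraries were above both Ctrl libraries by more than the spread within groups, by 1.22 percentage points on average, with p = 0.333 in a 2-sided exact permutation test, which cannot go lower with 2 libraries in each group. Ms4a6c supplied at least as many gate UMIs as the other gate genes together in 8, 11, 17 and 130 gated cells. Its part in the share was not tested. Co-detecting cells took 0.668% ± 0.0742 (SD, n = 2) of kept cells in Ctrl and 2.01% ± 0.375 (SD, n = 2) in HLU. With every cell thinned to 2000 UMIs and gated on the thinned counts, the shares were 1.25% ± 0.104 in Ctrl and 4.17% ± 0.952 in HLU (SD, n = 2), a difference of 2.93 percentage points. Most exclusion limits are fixed UMI numbers, so thinning can let in cells that their full counts exclude. The thinned gate held 403 cells in HLU replicate 2, against 276, and 73 in Ctrl replicate 1, against 123. It thus does not count the same cells. The denominator differed between groups too. Among kept cells with at most 1% skeletal UMIs, gated cells made up 2.08% ± 0.151 of Ctrl and 2.96% ± 0.258 of HLU libraries (SD, n = 2), and co-detecting cells 1.26% ± 0.0839 and 2.03% ± 0.371.

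The direction turned on another denominator. Cells with at least 4 UMIs of the 4 gate genes numbered 341, 430, 518 and 1578, and of these 97, 171, 143 and 886 failed the inflammatory step, most in HLU replicate 2. Gated cells were 36.1, 30.7, 40.7 and 17.5% of them. That averaged 33.4% ± 3.80 for Ctrl and 29.1% ± 16.4 for HLU (SD, n = 2), with the HLU libraries on both sides of the Ctrl libraries (exact permutation p = 1). At the edge of the gate, 7, 19, 13 and 36 members held exactly 4 UMIs of the gate genes, and 29, 32, 18 and 80 cells that passed every other step held 3. Members with an inflammatory sum of 3 numbered 8, 11, 14 and 28, and cells with a sum of 4, just outside, 6, 12, 15 and 19.

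The 5 marker genes of the label differed between libraries. Levels are CPM (UMIs scaled to a common library total) after a correction by trimmed means (TMM), unless said otherwise, and come from 3′ tags, so they are not divided by transcript length. Ly6c2 (chr15:75108158-75111970 on mm10, minus strand), which encodes a Ly6C protein, stood at 99.9, 299.9, 1037 and 918 CPM in gated cells (log2 difference 2.29 ± 0.56 (SE), edgeR adjusted p = 0.0738). It stood at 269, 708, 1196 and 1206 in co-detecting cells, and the HLU libraries were above the Ctrl libraries in both sets. Ly6c2 was detected in 13.8, 22.0, 67.8 and 69.6% of gated cells, and in 9.93, 14.3, 21.4 and 49.7% of neutrophils, whose median depths were 2380.5, 2840, 2603 and 4116 UMIs. After each cell was thinned to 2000 UMIs, which left out 0, 1, 3 and 8 gated and 657, 475, 1054 and 132 neutrophil barcodes, the shares were 8.94, 14.5, 49.0 and 49.3% and 6.70, 8.81, 16.2 and 32.9%. The gated share was above that of neutrophils in each library at equal depth. In the remaining kept cells the level was 87.5, 141, 433 and 2526 CPM without TMM scaling, so in HLU replicate 2 it was higher there than in the gated cells (90.1, 299.8, 1103 and 927).

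Ccr2 (chr9:124101950-124113557, plus strand), the receptor for egress from marrow, stood at 253, 198, 363 and 123 in gated and 499.8, 397, 361 and 89.9 in co-detecting cells, lowest in HLU replicate 2. Vcan (chr13:89655312-89742509, minus strand) was close to even, at 709, 689, 781 and 528 in gated and 843, 815, 903 and 704 in co-detecting cells. Ms4a6c (chr19:11469366-11482192, plus strand), a multi-pass membrane protein of monocytes, stood at 209.9, 248, 496 and 944 in gated and 497, 559, 583 and 1121 in co-detecting cells. It was the one of the 3 with both HLU libraries highest. F13a1 (chr13:36867178-37050244, minus strand) encodes the A chain of coagulation factor XIII. It stood at 397, 317, 554 and 85.2 in gated (log2 difference -0.16 ± 0.76 (SE), edgeR adjusted p = 0.946) and 951, 630.2, 639 and 109 in co-detecting cells, and HLU replicate 2 was below the other 3 libraries in both. F13a1 was detected in 88.9, 85.2, 87.8 and 54.8% of co-detecting cells against 3.89, 7.02, 2.19 and 3.20% of neutrophils. After thinning to 2000 UMIs, which left out 0, 0, 0 and 2 co-detecting cells, the shares were 73.3, 64.8, 62.2 and 20.9% and 2.46, 4.20, 1.28 and 2.19%, with HLU replicate 2 the lowest of the co-detecting values at either depth. The remaining gate gene, Csf1r, the receptor for Csf1 and IL-34, stood at 231, 339, 516 and 293 in gated and 487, 529, 585 and 335 in co-detecting cells.

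The genes that the gate used for exclusion were low by construction. Inflammatory monocytes are the cells that met the same gate but held at least 4 UMIs of Serpinb2, Ptgs2 and Il1a. In CPM without TMM scaling, Serpinb2, an intracellular protease inhibitor, stood at 4.96, 5.64, 14.7 and 28.9 in gated cells and 721, 484, 244 and 1104 in inflammatory monocytes. Ptgs2, the inducible cyclo-oxygenase, stood at 42.2, 38.3, 37.2 and 26.1 in gated cells and 1593, 2146, 1084 and 486 in inflammatory monocytes. Il1a stood at 0.827, 4.39, 2.16 and 17.9 and 70.4, 41.8, 27.8 and 253. Both classes of cell came from the same 4 libraries. The label covers these gate genes and not inflammatory genes at large. A list of 25 inflammatory mediators summed to 7191, 9403, 8634 and 12519 in gated cells. It summed to 23039, 24293, 22094 and 23333 in inflammatory monocytes and 6077, 7957, 4848 and 10554 in all other kept cells. Gated cells thus lay between the 2 in each library. In gated cells the granule gene Camp stood at 90.1, 135, 221 and 351, Gpnmb at 18.2, 10.03, 14.7 and 23.7 and the C1q gene C1qb at 0, 0.627, 0 and 1.72.

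**Figure D2:**
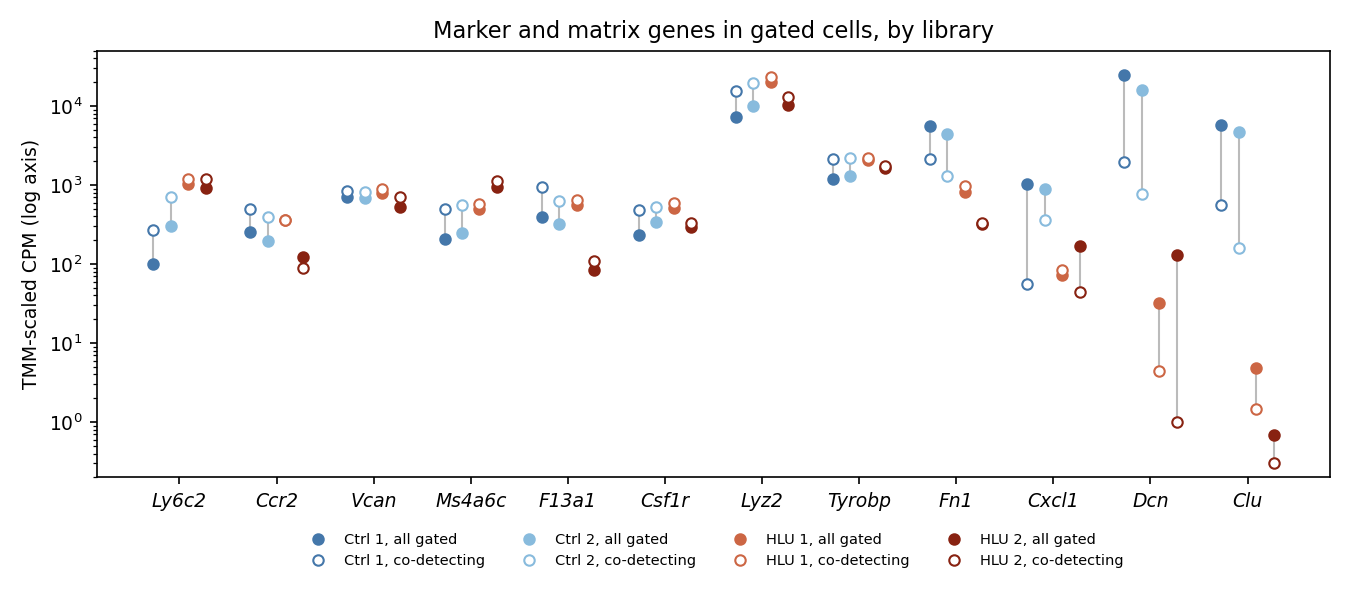
Level (TMM-scaled CPM, log axis) of marker and matrix genes in each library, with filled circles for all gated cells, open circles for co-detecting cells and a grey line joining the 2 values of a library. Clu in HLU replicate 2 had 0 UMIs in co-detecting cells and is drawn near the lower edge. Dcn and Clu are higher in the blue Ctrl libraries (Clu 5755, 4693, 4.88 and 0.681 in gated cells), and drop between all gated and co-detecting cells there, whereas Vcan (709, 689, 781 and 528) is close to level.

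Beside the genes of the gate, a set of myeloid genes stood higher in gated cells than in the pool of all other kept cells. The 10 genes with the largest ratio of gated over all other kept cells, by the lowest of the 4 libraries and with at least 50 CPM without TMM scaling in each library, included Tnip3, Maf, Gngt2, Ms4a6d, Ms4a6b, Clec4a1, Irf8, Rassf4 and Ctsc. The ratio is a description, since the cells were gated on related genes. Tnip3, which restrains NF-kB signalling, was 11.3, 6.78, 9.16 and 6.10 times its level in other cells. Maf, a macrophage transcription factor, was at 4.37, 6.55, 6.42 and 4.84 times. Irf8, a factor needed for monocyte and dendritic cell fate, was at 8.97, 5.10, 3.81 and 3.40 times and led in Ctrl replicate 1. Ms4a6d and Ms4a6b belong to the same gene family as Ms4a6c. Ms4a6d was at 11.2, 7.44, 8.79 and 4.34 times and Ms4a6b at 10.3, 7.01, 7.61 and 4.06 times. Clec4a1, a C-type lectin receptor, was at 11.1, 11.6, 12.6 and 3.94 times, and the lysosomal protease cathepsin C (Ctsc) at 9.29, 7.22, 7.33 and 3.27 times. For all but Maf among the genes named, the ratio was lowest in HLU replicate 2. Several of them were higher still in inflammatory monocytes. In CPM without TMM scaling, Clec4a1 stood at 93.4, 182, 347 and 393 in gated cells and 388, 347, 429.6 and 439 in inflammatory monocytes. Maf, Ms4a6d and Ctsc were likewise higher in inflammatory monocytes in all 4 libraries, while Irf8 stood at 126, 129, 210.3 and 140.2 in gated cells and 109, 134, 149 and 136 in inflammatory monocytes, higher in gated cells in 3 libraries.

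HLU replicate 2 stood apart from the other 3 libraries in a number of single genes, which bears on each comparison that follows. Over 9420 genes, log CPM of gated cells correlated between the Ctrl libraries at r = 0.946 and between the HLU libraries at r = 0.899. With Ctrl replicates 1 and 2, r was 0.755 and 0.802 for HLU replicate 1 and 0.699 and 0.753 for HLU replicate 2. By r over all gated cells, HLU replicate 2 was thus nearer to HLU replicate 1 than to either Ctrl library. These are values across genes, which are not independent. Gated cells of Ctrl also held more connective tissue transcripts, whose part in r was not tested. Among 5389 genes with at least 100 UMIs in co-detecting cells, 28 were at least 4-fold above the highest of the other libraries in HLU replicate 2 and 77 at least 4-fold below the lowest (after adding 5 CPM). The same counts were 0 and 1 for HLU replicate 1, 6 and 9 for Ctrl replicate 1, and 2 and 0 for Ctrl replicate 2. The genes named next were chosen after their values were seen, from the ends of that ordering. The T cell and monocyte chemokine Ccl5 stood at 0, 1.50, 5.36 and 1528 in co-detecting cells and the scavenger receptor Marco at 0, 0, 0.975 and 867. The acute-phase gene Saa3 stood at 407, 505, 827 and 12813 and the chitinase-like protein Chil3 at 249, 113, 206 and 2738. At the low end the vascular growth factor Vegfa stood at 338, 370.0, 252 and 2.47, the neutrophil attractant Cxcl3 at 2114, 1865, 1564 and 77.0 and the myeloid factor Cebpb at 3227, 2600.3, 3157 and 320.0. Gm42418, a locus that overlaps ribosomal RNA repeats, stood at 3445, 2739, 2065 and 28996. Median mitochondrial shares of gated cells were 1.75, 2.28, 2.17 and 1.77%, so HLU replicate 2 lay within the range of the others. In the depth of its barcodes HLU replicate 2 stood apart. Barcodes under the lower UMI limit for kept cells numbered 2585, 2212, 2143 and 267. Those over the upper UMI limit numbered 6, 17, 15 and 230. The part of these differences in the gene levels was not tested. The mouse and the library preparation cannot be told apart with 1 library per mouse.

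The second comparison asked which genes differed between HLU and Ctrl when UMIs were summed over gated cells per library. Of 9420 genes tested with edgeR's quasi-likelihood test, 554 (5.88%) had a Benjamini-Hochberg adjusted p under 0.05. In HLU 19 (0.202%) rose and 535 (5.68%) fell, while 2200 (23.4%) had both HLU libraries above both Ctrl libraries and 2351 (25%) had both below. The test took in 17 genes of the gate, of which 1 (Ngp) passed as a rise, so 18 rises and 535 falls lie outside the gate, and nothing is read from the call of Ngp. The median log2 difference of all genes outside it was 0.03. The falls were led by genes of cartilage and connective tissue. Of the skeletal list, 23 of 28 tested members fell and 0 rose. The list summed to 72135, 56031, 201 and 409 CPM, with Dcn, which encodes the collagen-binding proteoglycan decorin, as its most abundant gene. Its median log2 difference was -6.77, or -6.37 with the 2 genes that had no UMIs in HLU set to a floor of 3 UMIs over the group. In co-detecting cells the list summed to 10254, 2274, 41.9 and 14.3 CPM. The count of calls depended on single libraries, with 178 without Ctrl replicate 1, 222 without Ctrl replicate 2, 2703 without HLU replicate 1 and 1162 without HLU replicate 2, where the lone library of a group was assumed to vary like the others.

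The 5 largest falls were genes of secreted or matrix proteins. 1500015O10Rik, which encodes the secreted protein augurin, stood at 9355, 8019.9, 1.63 and 0.341 CPM (log2 difference -13.08 ± 0.87 (SE), edgeR adjusted p = 0.00127). Slurp1, a secreted protein of the Ly6 family, stood at 233, 259.7, 0 and 0 (edgeR adjusted p = 0.00127). With a floor of 3 UMIs over the HLU group its ratio was 443, and its counting interval began at 360. Aggrecan (Acan), the main cartilage proteoglycan, stood at 626 and 461 in Ctrl and had 1 UMI in HLU, a ratio of 2932 with a counting interval from 526 to 115812. Clusterin (Clu) is a secreted chaperone and stood at 5755, 4693, 4.88 and 0.681, and chondroadherin (Chad), a cartilage matrix protein, at 2577, 2471, 2.44 and 1.02. In co-detecting cells 1500015O10Rik stood at 569, 155, 0 and 0, Acan at 100, 31.6, 0 and 0.494, Clu at 564, 161, 1.46 and 0 and Chad at 446, 58.7, 1.95 and 0.494, and Slurp1 had no UMIs. Each Ctrl level of the 5 genes was thus lower in co-detecting than in all gated cells. Over the 535 genes that fell, 507 had a level in co-detecting Ctrl cells of at most 50% of that in all gated Ctrl cells, and 296 kept both HLU libraries below both Ctrl libraries there, beside 1819 of all 9403 genes outside the gate (19.3%). When edgeR was fitted to co-detecting cells, 15 of 7994 genes passed (0.188%), all lower in HLU, and 14 of these were among the 535 (145 of which could be tested there).

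**Figure D3:**
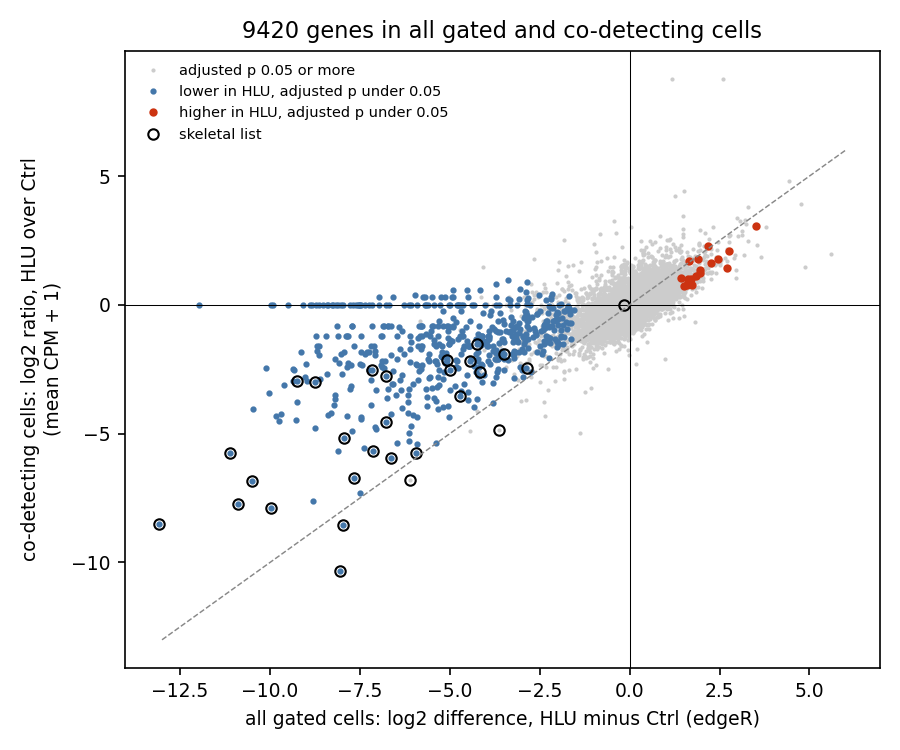
Each point is 1 of 9420 genes. The x axis is the log2 difference of HLU minus Ctrl in all gated cells (edgeR), the y axis the log2 ratio of mean CPM + 1 in co-detecting cells, and the dashed line marks equality. The 535 blue genes that fell lie mostly above the dashed line, nearer to 0 on the y axis, the circled skeletal list reaches the lowest y values, and the 19 red genes that rose (1 of them, Ngp, a gene of the gate) have HLU above Ctrl on both axes.

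By size, the 18 rises outside the gate were led by Ripor2, a regulator of RhoA and of cell polarity, at 1.83, 1.88, 10.6 and 33.0 CPM (log2 difference 3.52 ± 0.78 (SE), edgeR adjusted p = 0.0496). The progenitor transcription factor Myb followed at 3.67, 1.88, 18.7 and 18.1 (log2 difference 2.76 ± 0.53 (SE), edgeR adjusted p = 0.0282). Cst7, an inhibitor of cysteine proteases, stood at 4.58, 5.65, 41.5 and 26.6 (edgeR adjusted p = 0.0170). These genes were low in both groups, and so were the next. The activating receptor Pilrb2 stood at 9.17, 14.4, 54.1 and 78.0 (edgeR adjusted p = 0.0147) and Alpk1, a kinase that senses bacterial sugars, at 3.67, 3.14, 16.3 and 16.3 (edgeR adjusted p = 0.0443). Among co-detecting cells Ripor2 stood at 0, 3.01, 9.75 and 30.1, Myb at 0, 1.50, 6.34 and 6.42 and Cst7 at 7.69, 10.5, 35.1 and 17.8. Pilrb2 stood there at 20.5, 24.1, 61.9 and 94.3 and Alpk1 at 7.69, 4.51, 19.5 and 21.7. Of the 46 and 53 HLU UMIs of Myb, 13 and 13 came from co-detecting cells. In co-detecting cells, a subset of the same cells, both HLU libraries stood above both Ctrl libraries for all 18 genes, as for 1530 of all 9403 (16.3%). None of the 18 passed when edgeR was fitted to co-detecting cells (17 tested, 12 at an unadjusted p under 0.05), nor did any gene rise at an adjusted p under 0.05 with gated cells carrying transcripts of other cells left out (369 of 8418 genes at an unadjusted p under 0.05 in either direction). Their median log2 difference was 1.88 in gated cells and their median log2 ratio 1.19 in co-detecting cells, and 15 of the 18 had a higher Ctrl level in co-detecting than in all gated cells. No gene rose at an adjusted p under 0.05 by edgeR when either Ctrl library was left out, against 342 without HLU replicate 2 and 1120 without HLU replicate 1.

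Genes with at least 50 CPM on average, and a level in gated cells at or above that in all other kept cells of each library, form the monocyte-enriched set. Of its 1264 members outside the gate, 5 rose and 10 fell, while 0.202% of all genes rose and 5.68% fell. A gene could reach the 50 CPM average through its higher group alone. Among the rises, Itga4, B4galt6 and Malt1 were below 50 CPM in both Ctrl libraries. The counts are therefore a description, and nothing is read from their difference from all genes. The integrin chain Itga4, which pairs with Itgb1 to bind Vcam1 and fibronectin, stood at 33.9, 32.6, 118 and 139 CPM (log2 difference 1.95 ± 0.31 (SE), edgeR adjusted p = 0.0139). In co-detecting cells it stood at 58.9, 52.6, 116 and 154, again without overlap of the groups. Gngt2, a G protein gamma subunit of patrolling monocytes, stood at 110.0, 130.5, 349 and 434 (log2 difference 1.70 ± 0.35 (SE), edgeR adjusted p = 0.0365) and at 208, 233, 392 and 495 in co-detecting cells. Malt1, a protease of the NF-kB pathway, stood at 22.9, 32.6, 78.5 and 131 (edgeR adjusted p = 0.0363). The glycolipid enzyme B4galt6 stood at 17.4, 28.9, 95.2 and 85.8 (edgeR adjusted p = 0.0234), and Camkk2, a kinase upstream of AMPK, at 42.2, 52.7, 134 and 122 (edgeR adjusted p = 0.0469). The next 5 by unadjusted p did not pass, with edgeR adjusted p from 0.0584 to 0.0701. They were the formyl peptide receptor Fpr2 (77.9, 141, 327 and 461), Aoah, which inactivates endotoxin (22.9, 20.1, 52.1 and 119), the transporter Abcc5 (47.7, 58.3, 139.5 and 126), Smpdl3b (36.7, 49.6, 103 and 111) and Nrros, a partner of latent TGF-beta (49.5, 67.8, 153 and 146).

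The 10 monocyte-enriched genes that fell had lower Ctrl levels in co-detecting cells. Igfbp6, which binds insulin-like growth factors, stood at 941, 998, 3.66 and 8.86 in gated cells (edgeR adjusted p = 0.00147) and 15.4, 19.6, 3.90 and 0.494 in co-detecting cells. Its relative Igfbp7 stood at 1156, 1090.3, 24.0 and 10.9 (edgeR adjusted p = 0.00195) and 64.1, 30.1, 2.44 and 0.494. The secreted protease Htra1 stood at 1058, 596, 6.92 and 10.2 and 15.4, 21.1, 3.41 and 0.988. These 3 genes reached the 50 CPM average of the set through the Ctrl libraries alone, and few of their Ctrl transcripts came from co-detecting cells. The growth-arrest gene Gas1 stood at 636, 486, 22.8 and 5.11 in gated and 25.6, 13.5, 0.487 and 0 in co-detecting cells. Also among the 10 were Cltb (120.1, 69.0, 8.14 and 17.0), Avpi1 (104, 120.4, 27.7 and 14.3), Mpp6 (268, 219.6, 55.7 and 38.8), Uap1 (149, 143, 34.6 and 24.5) and Zfp703 (117, 89.1, 27.3 and 20.1). Avpi1 kept both HLU libraries below both Ctrl libraries in co-detecting cells, at 58.9, 57.2, 24.4 and 7.41.

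The marker lists of monocytes and granulocytes gave few calls, beside the background of 0.202% rises and 5.68% falls. The classical monocyte list had 0 rises and 1 fall among 13 members outside the gate (median log2 difference 0.50, and 5 at an unadjusted p under 0.05). Fibronectin (Fn1), a matrix gene that fibroblasts share, was the fall, at 5513, 4424, 807 and 319 (log2 difference -3.14 ± 0.58 (SE), edgeR adjusted p = 0.0241). It stood at 2145, 1296, 958 and 333 in co-detecting cells, in which the groups still did not overlap. Lyz2 stood at 7353, 9945, 20209.5 and 10299 and the calcium-binding protein S100a4 at 747, 1552, 1986 and 1137, highest in HLU replicate 1. The non-classical monocyte list had 1 rise (Gngt2) of 11 (median 1.32), with Clec4a1 at 104, 182, 326 and 389. The neutrophil list had 1 rise of 10 (median 1.62), the G-CSF receptor Csf3r at 22.9, 32.0, 76.5 and 95.4 (edgeR adjusted p = 0.0364). S100a8 and S100a9 are the subunits of calprotectin. S100a8 stood at 1007, 2019, 2990.2 and 11408, S100a9 at 1094, 2114, 2972 and 11303 and the iron-binding Lcn2 at 997, 999.98, 914 and 5125, each highest in HLU replicate 2. The neutrophil list summed to 3687, 6479, 8735 and 31365 CPM in gated and 4388, 4656, 7489 and 22869 in co-detecting cells, and its part in the rises was not tested.

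Lists for lymphocytes, red cells, platelets and dendritic cells gave no call by edgeR. The erythroid list, which the limit on haemoglobin bounds, had 3 of 3 members higher in each HLU library than in either Ctrl library, beside 23.4% of all genes (2 at an unadjusted p under 0.05), with Hbb-bs at 16.5, 11.3, 28.9 and 38.1. The T and NK list summed to 108, 26.3, 49.6 and 63.7 CPM in gated and 0, 0, 3.41 and 3.46 in co-detecting cells. Il2rb, a chain of the receptors for IL-2 and IL-15, stood at 68.7, 12.5, 17.9 and 34.4, highest in Ctrl replicate 1. Of the B cell list 0 of 3 reached an unadjusted p under 0.05, with Ighm at 32.1, 60.2, 71.6 and 50.4 and Igkc at 11.9, 26.3, 37.4 and 6.13. The platelet chemokine Pf4 stood at 61.4, 119.8, 57.4 and 5.11, lowest in HLU replicate 2, no basophil gene reached the test, and the progenitor receptor Kit stood at 5.50, 27.6, 26.0 and 34.4. Of 6 dendritic cell genes 0 reached an unadjusted p under 0.05, with the lymph node homing receptor Ccr7 at 4.58, 52.1, 24.0 and 47.7. Ctrl replicate 1 was the low library for Kit and Ccr7.

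Genes of osteoclasts and resident macrophages gave 1 fall in each list, beside 5.68% falls over all genes. The osteoclast genes were highest in Ctrl replicate 2. The protease cathepsin K (Ctsk) stood at 69.7, 914, 8.54 and 1.02 and fell (log2 difference -6.71 ± 1.45 (SE), edgeR adjusted p = 0.0445), but not without Ctrl replicate 2. The acid phosphatase Acp5 stood at 84.3, 821, 4.48 and 48.7 and the gelatinase Mmp9 at 25.7, 514, 61.0 and 104. In co-detecting cells Ctsk stood at 5.13, 7.52, 5.85 and 0.494, so the level of Ctrl replicate 2 lay in the other gated cells. Of 5 resident macrophage genes 1 fell, the receptor Axl, which stromal cells also make, at 44.9, 47.7, 4.88 and 0.681 (edgeR adjusted p = 0.0163). The F4/80 gene Adgre1 stood at 57.7, 99.1, 183 and 372 without passing (edgeR adjusted p = 0.0888). Of 16 regulators that an osteoclast precursor carries 0 passed by edgeR (2 at an unadjusted p under 0.05, median 0.26). The adaptors Fcer1g and Tyrobp pair with activating receptors of myeloid cells. Fcer1g stood at 1467, 1560.2, 2849 and 3774 in gated and 2650.0, 2835, 3163 and 4286 in co-detecting cells, higher in HLU in both. Tyrobp stood at 1191, 1299, 2079.7 and 1635 in gated and 2135, 2175, 2223 and 1733 in co-detecting cells, in which the groups overlapped. Fos, needed for osteoclast formation, stood at 388, 443, 548 and 449.

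Genes of monocyte identity and of movement gave 2 calls, beside a background of 0.202% rises and 5.68% falls over all genes. Of 17 monocyte transcription factors 0 passed by edgeR (2 at an unadjusted p under 0.05, median -0.15). Spi1, which encodes PU.1, stood at 309, 315, 411 and 555 and Zeb2, a factor of monocyte fate, at 288, 400.2, 635 and 652. Klf4, which monocytes and stromal cells both use, stood at 429.9, 311, 87.9 and 15.3 in gated and 97.4, 102, 86.8 and 17.3 in co-detecting cells (edgeR adjusted p = 0.0937). Cebpb stood at 2091, 1755, 2865 and 275, low in HLU replicate 2 alone. Of 21 genes of migration and adhesion 1 rose (Itga4) and 1 fell (median 0.45). The fall was Icam1, the ligand of the beta-2 integrins, at 253, 124, 51.7 and 41.6 (log2 difference -2.01 ± 0.43 (SE), edgeR adjusted p = 0.0433) and 238, 70.7, 54.6 and 42.5 in co-detecting cells, highest in Ctrl replicate 1. The integrin chain Itgam stood at 151, 267, 399.9 and 449.9, its partner Itgb2 at 199.8, 279.8, 411 and 299 and the hyaluronan receptor Cd44 at 350.2, 326, 308 and 344, the last nearly level across libraries.

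Genes of innate sensing and killing gave no call by edgeR. Of 14 pattern recognition genes 0 passed by edgeR (2 at an unadjusted p under 0.05), while 9 had both HLU libraries above both Ctrl libraries and 0 both below (median 0.69), beside 23.4% and 25% of all genes. In co-detecting cells 5 of the 14 were above and 2 below, beside 16.3% and 19.3% of all genes (median log2 ratio 0.16). The inflammasome sensor Nlrp3 stood at 44.9, 19.4, 109 and 85.2 (edgeR adjusted p = 0.102). The lectins Clec4d and Clec4e sense glycolipids, with Clec4d at 648, 481, 1062 and 812 and Clec4e at 419.8, 364, 778 and 548. Cd14, the co-receptor for endotoxin, stood at 1036, 961, 996 and 575 in gated and 2040.1, 1626, 1130.0 and 607 in co-detecting cells, in which the Ctrl libraries were the higher ones. Of 15 genes of phagocytosis and the NADPH oxidase 0 passed by edgeR (6 at an unadjusted p under 0.05, median 0.82). Of these, 8 had both HLU libraries above and 1 both below in gated cells, and 4 above and 4 below in co-detecting cells (median log2 ratio 0.03). The oxidase subunit Cybb stood at 822, 928, 2178 and 2051 in gated and 1863, 1975, 2501 and 2568 in co-detecting cells, higher in HLU in both. Galectin-3 (Lgals3) stood at 5324, 4165, 5184 and 1124, lowest in HLU replicate 2. Lysosomal genes had 1 fall of 20, near the 5.68% of all genes that fell (median 0.08). It was Cd63, a tetraspanin of lysosomal membranes that most cells make, at 588, 554, 147 and 129 (edgeR adjusted p = 0.0175) and 128, 116, 107 and 79.0 in co-detecting cells. The proteases Ctsd and Ctsb stood at 577, 718, 1055 and 896 and at 654, 708, 875 and 679.

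Of 24 inflammatory mediators 0 rose and 3 fell (median 0.32), beside 0.202% rises and 5.68% falls over all genes. The falls were the chemokines Ccl7, Cxcl1 and Ccl2, which stromal cells also secrete. Ccl7 stood at 86.2, 169, 0.814 and 3.07 (log2 difference -5.96 ± 0.63 (SE), edgeR adjusted p = 0.00288), and at 2.56, 0, 0 and 3.95 in co-detecting cells. Cxcl1 stood at 1044, 882, 71.6 and 171 (edgeR adjusted p = 0.0184), and at 56.4, 364, 82.9 and 44.0 in co-detecting cells. Ccl2 stood at 214, 361, 52.5 and 76.6 (edgeR adjusted p = 0.0280), and at 46.1, 57.2, 38.0 and 99.8 in co-detecting cells. None of the 3 separated the groups in co-detecting cells. Cxcl2 and Cxcl3 attract neutrophils, with Cxcl2 at 1227, 1822, 1978 and 1645 and Cxcl3 at 1103, 1546, 1357 and 89.2. The mitochondrial dismutase Sod2 stood at 633, 667, 1089.9 and 3559.6, highest in HLU replicate 2. Nos2, the inducible nitric oxide synthase, stood at 314, 223, 58.6 and 1.70 in gated and 346, 185, 68.7 and 1.98 in co-detecting cells (edgeR adjusted p = 0.224). Its HLU libraries were below its Ctrl libraries in both sets without passing, and HLU replicate 2 was lowest.

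Antigen presentation and interferon genes gave no call by edgeR. Of 7 MHC class II genes 0 reached an unadjusted p under 0.05 and 0 separated the groups (median 0.23). The invariant chain Cd74 stood at 266, 913, 712 and 503 and H2-Aa at 84.3, 369.5, 177 and 117, with Ctrl replicate 1 low. Of 9 class I genes 0 reached an unadjusted p under 0.05 (median 0.31). Both HLU libraries were above both Ctrl libraries for 5 and below for 0, beside 23.4% and 25% of all genes. In co-detecting cells 1 was above and 1 below, beside 16.3% and 19.3%. H2-D1 stood at 1295, 1257, 1402 and 722 and B2m at 802, 948, 1425 and 739, both lowest in HLU replicate 2. Of 15 interferon-stimulated genes 2 reached an unadjusted p under 0.05 (median 0.55). Ifitm3, which blocks viral entry, stood at 785, 1267, 1669 and 777 and Bst2, which tethers budding virions, at 48.6, 99.7, 140.4 and 135. The groups overlapped for Ifitm3 and not for Bst2.

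Stress response genes gave 2 falls, beside 5.68% falls over all genes. Of 18 immediate early and dissociation genes 1 fell, a share near that background, while 9 had both HLU libraries below both Ctrl libraries and 2 both above (median -0.52), beside 25% and 23.4% of all genes. In co-detecting cells 5 were below and 1 above, beside 19.3% and 16.3% of all genes. The fall was the heat shock gene Hspa1a, at 1199.9, 662, 50.4 and 6.13 (log2 difference -5.05 ± 0.98 (SE), edgeR adjusted p = 0.0283), and at 82.0, 43.6, 47.3 and 2.96 in co-detecting cells, in which the groups overlapped. The chaperone Hspa8 stood at 1849.8, 1603, 1197 and 1365. Of 8 glucocorticoid response genes 1 fell, while 6 had both HLU libraries below and 1 both above in gated cells (median -1.69), and 4 below and 1 above in co-detecting cells. Relative to the mean of the Ctrl libraries, the median log2 ratio of the list in co-detecting cells was -0.04 for HLU replicate 1 and -2.36 for HLU replicate 2. The fall was the factor Klf9, at 123, 97.9, 22.0 and 6.13 (log2 difference -2.98 ± 0.57 (SE), edgeR adjusted p = 0.0280) and 41.0, 24.1, 7.31 and 2.47 in co-detecting cells, without overlap in either. The kinase Sgk1 stood at 276, 329, 71.2 and 15.7 and the phosphatase Dusp1 at 638, 413, 255 and 71.5, and neither passed. Of 18 genes of glutamine metabolism 0 passed by edgeR (5 at an unadjusted p under 0.05, median -0.34). Both HLU libraries were below both Ctrl libraries for 7 and above for 2, beside 25% and 23.4% of all genes. In co-detecting cells 3 were below and 3 above, beside 19.3% and 16.3%. The cystine transporter Slc7a11 stood at 379, 239.6, 838 and 621 and Gclm, for glutathione synthesis, at 407, 307, 524 and 191. Got1 stood at 83.4, 40.8, 24.0 and 17.7, lower in HLU without passing. Of 11 anti-apoptotic and 19 pro-apoptotic genes 0 passed by edgeR (2 and 1 at an unadjusted p under 0.05, medians 0.42 and 0.40). Mcl1 stood at 744, 685, 895 and 221 and Bcl2a1b at 29.3, 87.2, 52.5 and 751, with Bcl2a1b highest in HLU replicate 2. The Bcl2a1 copies are near-identical, so their counts are uncertain.

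In co-detecting cells most targets of hypoxia-inducible factors and most glycolysis genes stood lower in both HLU libraries, with HLU replicate 2 far lower by list median. These values are a description, and the lists were not tested as sets. In gated cells HLU replicate 1 held the highest glycolysis sum. Of 12 hypoxia targets 1 fell in gated cells, beside 5.68% of all genes (median -0.92), the peptide hormone gene Adm, at 37.6, 33.2, 2.03 and 1.02 (log2 difference -4.51 ± 0.50 (SE), edgeR adjusted p = 0.00335). The list summed to 3936, 3201, 2997 and 390.0 CPM in gated and 5743, 4340.4, 3181 and 404 CPM in co-detecting cells. In the latter both HLU libraries were below both Ctrl libraries for 10 of the 12 genes, against 1819 of 9403 genes tested outside the gate (19.3%), and HLU replicate 2 was below both for all 12. The oxidoreductase Ero1l stood at 2301, 1516, 1170.5 and 94.8 in co-detecting cells. The lipid droplet gene Hilpda stood at 1169, 617, 405 and 49.9 and the mitophagy gene Bnip3 at 582, 484, 416 and 39.0. As ratios, HLU replicate 1 was nearer to each Ctrl library than to HLU replicate 2 for these 3 genes. Per co-detecting cell, the list took a median of 0.477, 0.466, 0.250 and 0.0365% of UMIs. In gated cells the median log2 ratio of CPM + 1 to the mean of the Ctrl libraries was -0.07 for HLU replicate 1. It was -3.35 for HLU replicate 2.

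The glycolysis list had 0 of 15 passing in gated cells by edgeR (0 at an unadjusted p under 0.05, median -0.49). As a log2 ratio of CPM + 1 to the mean of the Ctrl libraries, without a new fit, the median was 0.04 for HLU replicate 1. It was -1.32 for HLU replicate 2. The list summed to 20809, 19118, 21195 and 7773 CPM in gated and 30139.6, 27216, 22897 and 8687 in co-detecting cells. In the latter both HLU libraries were below both Ctrl libraries for 14 of the 15 genes, beside 19.3% of all genes. Gapdh stood at 8614, 8219, 6675 and 2519 in co-detecting cells. Pgk1, an ATP-forming step of the pathway, stood at 4221, 3769, 3151 and 604 and hexokinase 2 (Hk2), an entry step, at 169, 146, 94.6 and 77.0. Relative to the mean of the Ctrl libraries, the median log2 ratio of the hypoxia list in co-detecting cells was -0.57 for HLU replicate 1 and -3.59 for HLU replicate 2. That of the glycolysis list was -0.33 and -1.73, beside -0.03 and -0.04 over all genes. The low level of HLU replicate 2 was present in other cells of that library as well. In CPM without TMM scaling the hypoxia list summed to 6542, 8598, 5431 and 526 in inflammatory monocytes and 4835, 6561, 4104 and 407 in neutrophils. The glycolysis list summed to 29832, 30158, 25782 and 9851 in inflammatory monocytes and 22603, 24479.7, 21402 and 5089.7 in neutrophils.

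**Figure D4:**
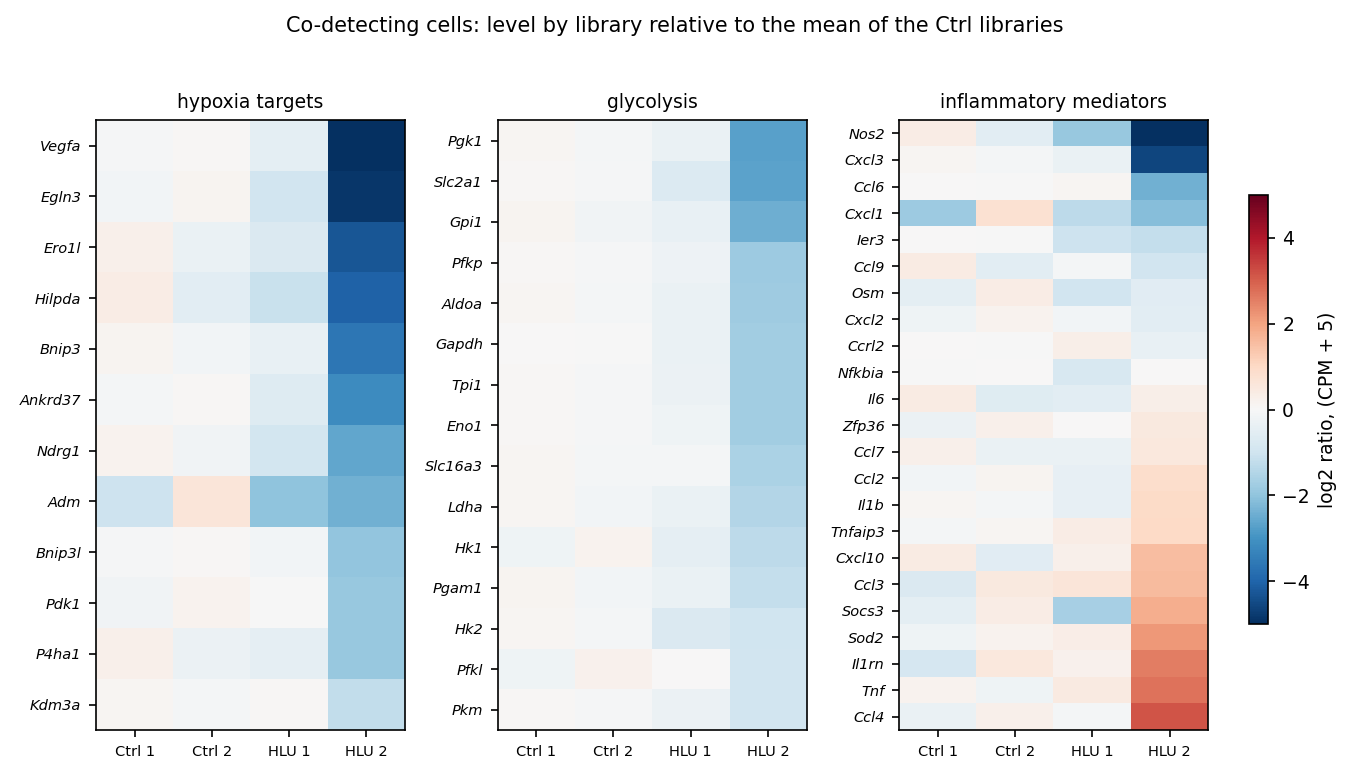
Colour gives the log2 ratio of each gene's level (CPM + 5) in co-detecting cells of a library to the mean of the Ctrl libraries, for hypoxia targets, glycolysis genes and inflammatory mediators (not all drawn), ordered by HLU replicate 2. In the first 2 panels HLU replicate 2 is blue throughout (for Vegfa 338, 370.0, 252 and 2.47 CPM in the 4 libraries) and HLU replicate 1 paler, and among mediators HLU replicate 2 holds both strongly negative (Nos2, Cxcl3) and strongly positive (Ccl4, Tnf) values.

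**Figure D5:**
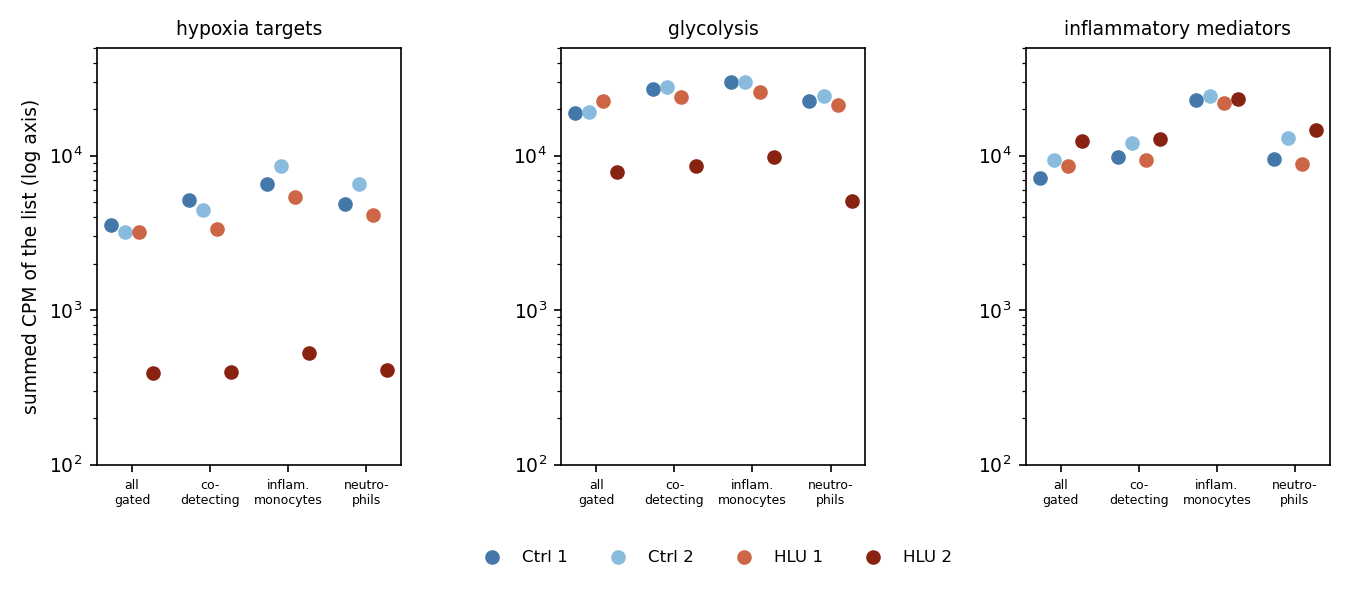
Summed level (CPM without TMM scaling, log axis) of 3 lists in all gated cells, co-detecting cells, inflammatory monocytes and neutrophils, with a point per library. HLU replicate 2 lies below the other libraries in each of the 4 sets of cells for hypoxia targets (526 against at least 5431 in inflammatory monocytes) and glycolysis, but not for inflammatory mediators.

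Hypoxia-inducible factors bind the letters ACGTG. They were searched for on both strands. Within the 250 bases before the RefSeq start (build GRCm38.p6, the assembly of mm10), 4 of the 9 hypoxia targets matched by symbol held these letters on either strand (44.4%), 6 of the 15 glycolysis genes did (40%), and 5444 of all 32851 promoters did (16.6%). A match is a description of the sequence and not a binding site. The 30 bases around the match nearest the start are shown, 5′ to 3′ on the gene's strand, for the 4 hypoxia targets that held one, because these genes were low together in HLU replicate 2. Capitals mark the match (CACGT where it lies on the other strand), which began 43, 107, 16 and 211 bases before the start.
Hilpda (chr6:29272571-29272600, plus strand): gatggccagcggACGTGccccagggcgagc
Bnip3 (chr7:138909596-138909625, minus strand): cgcacgcgccgcACGTGccacacgctcccc
P4ha1 (chr10:59323266-59323295, plus strand): ggtgtgacagagcgCACGTagcgagggctg
Vegfa (chr17:46025357-46025386, minus strand): ggagtgcgtgccCACGTcagagagcaacat
In gated cells Hilpda stood at 676, 381, 402 and 48.7 and Bnip3 at 412, 353, 378 and 35.1. The collagen prolyl hydroxylase P4ha1 stood at 334, 239, 149 and 47.0 and the vascular growth factor Vegfa at 217, 251, 257 and 14.6. All 4 were lowest in HLU replicate 2.

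The third comparison asked whether the HLU difference in gated cells differed from that in inflammatory monocytes of the same libraries (70, 102, 109 and 310 cells). An interaction term in edgeR's quasi-likelihood fit gave an adjusted p under 0.05 for 37 of 9217 genes (0.401%), of which 32 had a lower HLU difference in gated cells. The 5 with the smallest p are given in CPM without TMM scaling. Cystatin C (Cst3), a protease inhibitor, stood at 6454, 5453, 1002 and 847 in gated cells and 1313, 1152, 862 and 896 in inflammatory monocytes (difference of log2 differences -2.30 ± 0.21 (SE), edgeR adjusted p = 0.0104). Osteopontin (Spp1), a phosphoprotein of bone and of macrophages, stood at 6506, 7426, 631 and 332 in gated cells and 1418, 1376, 514 and 258 in inflammatory monocytes (-2.08 ± 0.21, edgeR adjusted p = 0.0130). In both, the Ctrl level of gated cells was the high one. In co-detecting cells Cst3 stood at 1927, 1095, 1006 and 946 and Spp1 at 848, 1036, 389.5 and 272 in TMM-scaled CPM. The retinol carrier Rbp4 stood at 92.6, 95.3, 9.95 and 0 in gated cells and 15.8, 35.5, 57.1 and 0.243 in inflammatory monocytes (-4.48 ± 0.49, edgeR adjusted p = 0.0142). The protein C receptor Procr stood at 121, 195, 56.3 and 15.8 and 103, 109.8, 193 and 54.2 (-2.43 ± 0.29, edgeR adjusted p = 0.0161). Marco stood at 0, 117, 0.866 and 726 and 0, 0, 0.771 and 439, and its Ctrl counts in gated cells came from replicate 2 alone. The count was 422 without Ctrl replicate 1, 630 without Ctrl replicate 2 and 21 without HLU replicate 1, and 0 (600 at an unadjusted p under 0.05, edgeR) without HLU replicate 2.

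The fourth comparison set gated cells against neutrophils (1672, 2166, 3477 and 2780 cells with at least 4 UMIs over Retnlg, Mmp8, Csf3r and Cxcr2 and fewer than 4 over the gate genes, under the same limits on granule and division genes). The interaction passed in 19 of 11593 genes (0.164%), of which 18 had a lower HLU difference in gated cells. The 5 with the smallest p encode secreted or matrix proteins. Matrix Gla protein (Mgp), an inhibitor of calcification, stood at 6164, 8771, 29.9 and 8.59 CPM without TMM scaling in gated cells and 863, 1079, 728 and 143 in neutrophils (difference of log2 differences -7.85 ± 0.38 (SE), edgeR adjusted p = 8.29e-04). Osteoprotegerin (Tnfrsf11b), the decoy receptor for RANKL, stood at 726, 671, 0.866 and 0.687 in gated cells and 261, 184, 11.0 and 20.4 in neutrophils (-6.64 ± 0.53, edgeR adjusted p = 0.0115). In co-detecting cells Mgp stood at 92.3, 60.2, 16.6 and 0.988 and Tnfrsf11b at 46.1, 1.50, 0 and 0.494 in TMM-scaled CPM, below all gated cells in each library. In neutrophils Chad stood at 1338, 1092, 53.1 and 45.5 (edgeR adjusted p = 0.0115), 1500015O10Rik at 3385, 2664, 34.3 and 31.6 (edgeR adjusted p = 0.0121) and the secreted protein Ccdc80 at 51.3, 65.0, 15.01 and 16.0 (edgeR adjusted p = 0.0121). All 5 transcripts were thus present in neutrophils of each library, more in Ctrl, and the part of RNA shared between droplets in these values was not tested. The count was 9 without Ctrl replicate 1, 1312 without HLU replicate 1 and 155 without HLU replicate 2, and 0 (557 at an unadjusted p under 0.05, edgeR) without Ctrl replicate 2.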

How the data were processed

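Libraries were made from flushed, enzyme-digested tibiae and femurs with a 10x 3′ kit. Per the submitters' processing notes and the methods, reads were aligned to mm10 (reference 3.0.0) with Cell Ranger 6.0.0, and Seurat 4.1.0 was used downstream. The authors deposited raw UMI counts per gene and barcode (31053 genes), from a filtered matrix in which doublets and free RNA had not been removed as far as the files show. Doublets called by Scrublet (10, 6, 14 and 26 gated cells, scanpy 1.11.5) stayed in. UMIs of gated cells were summed per library and tested with edgeR 4.0.16 (R 4.3.3) after its filter on low counts and TMM scaling, with quasi-likelihood tests and Benjamini-Hochberg adjusted p under 0.05. Interactions used the library as a block. Cells were not treated as replicates, and with 2 mice a group p-values rest on the spread between 2 libraries. The exact permutation test was applied to shares. Coordinates are from GENCODE M21 (30934 of 31053 genes found), and promoters from RefSeq, GRCm38.p6.

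The members, gene lists and tests were chosen with earlier results of these data known. Named genes are the label and gate genes, the 5 largest rises and falls with groups that do not overlap, 10 each way among monocyte-enriched genes, the 3 most abundant and the 1 of smallest p in each list, the 5 of smallest p in each interaction, and the 10 of largest ratio to other cells; some of these are not reported here. Alternatives were DESeq2 1.42.0, other scaling and count filters, a replicate block, each library left out, doublets left out, other gates, thinned cells and equal cell numbers.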

Additional observations from a re-analysis of the deposited data

Results flagged for a closer look

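The HLU difference of several genes differed between gated cells and another class of cells in the same libraries, by an interaction term in edgeR's quasi-likelihood fit. Against inflammatory monocytes 37 genes passed, and the 5 of smallest p had differences of log2 differences of -2.30 (Cst3), -2.08 (Spp1), -4.48 (Rbp4), -9.40 (Marco) and -2.43 (Procr). The value of Marco is a fitted one with no UMIs in Ctrl inflammatory monocytes and Ctrl UMIs in gated cells of replicate 2 alone, so its size is not a measured fold. Against neutrophils 19 genes passed, and the 5 of smallest p had -7.85 (Mgp), -6.64 (Tnfrsf11b), -6.37 (Chad), -4.70 (Ccdc80) and -7.08 (1500015O10Rik). The Ctrl gate held connective tissue transcripts in each of these comparisons, with the skeletal list over 1% of UMIs in 53, 46, 4 and 1 gated cells, and its part in the interactions was not tested. Among co-detecting cells, a set defined after the data were seen, 2 genes passed against inflammatory monocytes and 3 against neutrophils. All 3 of the latter had a higher HLU difference in co-detecting cells than in neutrophils. With all gated cells, 18 of the 19 had a lower one.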

How the results depend on the processing

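The higher share of gated cells in HLU kept its direction under every alternative run except the share among cells with at least 4 UMIs of the gate genes, where the difference was -4.27 percentage points, and leaving out each library in turn gave 1.07 to 1.38 points, thinning to 2000 UMIs 2.93, and the other alternatives 0.779 to 1.45, against 1.22 points with all libraries and cells. The thinned share does not count the same cells, since the UMI limits of the gate were applied to thinned counts. The count of genes that differed between HLU and Ctrl was 554 in the main run. It was 646 with DESeq2 (487 of them among the 554), 1383 with no filter on low counts and 71 with at least 10 counts in every library. With the gate from 8 UMIs the count was 323, with cells thinned to 2000 UMIs 226, and with 1 library left out 178 to 2703. It was 15 among co-detecting cells and 9 with gated cells carrying transcripts of other cells left out, all of them lower in HLU, both alternatives being added after the data were seen. Other scalings gave 552 and 553, equal cell numbers 462, doublets left out 517 and other cells' genes left out 546. With the replicate number as a block 593 genes passed (56 higher, 537 lower). The replicate numbers mark no shared animal, and same-numbered libraries deviated together at a correlation of 0.0614 only.

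The 37 genes of the interaction with inflammatory monocytes became 88 with DESeq2, 558 with no filter, 73 with doublets left out, 2 among co-detecting cells and 0 to 630 with 1 library left out. The 19 of the interaction with neutrophils became 83, 222, 19, 3 and 0 to 1312 in the same order. The 3 among co-detecting cells all had a higher HLU difference than in neutrophils, whereas 18 of the 19 with all gated cells had a lower one. Of the single genes tested, the 40 called ones had 638 alternative values, of which 488 stayed past the threshold and 150 did not, and 0 changed sign. With 1 library left out, the log2 difference of Gclm ranged from -0.898 to 0.565, that of Igkc from -1.68 to 0.920 and that of Marco from -6.12 to 12.6, negative without HLU replicate 1 or Ctrl replicate 2 for Gclm, without HLU replicate 1 or Ctrl replicate 1 for Igkc and without HLU replicate 2 for Marco, against a positive value with all libraries. Among the 101 named genes not called, 16 passed with DESeq2 and 35 with no filter on low counts. With the replicate number as a block, 12 of them passed. The causes of these changes were not tested. The 2 libraries a group, 123 to 276 gated cells each and a Ctrl gate of mixed cells limit what these data can show.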
